A study of Homo sapiens with 32 samples.

Results

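The prostate kallikreins KLK2, KLK3 and KLK4 were followed across 32 RNA-seq libraries of LNCaP cells. They were taken by gene symbol from the deposited table of estimated counts, in which they are 3 of 57773 genes and 3 of the 23861 genes with at least 1 count. LNCaP is a human prostate cancer line from a lymph node metastasis that grows in dependence on androgen. The study built MACCs, fusion proteins that carry a DNA binding domain to androgen response elements (AREs), and used tamoxifen to induce them. There were 4 lines: parental LNCaP without a construct, and stable lines with a neutral MACC (3X FLAG tag only), a repressive MACC (KRAB) or an activating MACC (VP64). Each line received 2.5 µM tamoxifen or ethanol vehicle for 48 h, with 4 replicates per group that the labels call biological. All cells grew in medium with serum, and the MACC lines were also kept in blasticidin, which the labels name for those lines alone. The labels do not say whether a MACC line is a clone or a pool, nor which cultures the replicates came from, so the p-values below measure the spread between these libraries.

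Kallikreins are secreted serine proteases encoded in a cluster on chromosome 19. In the prostate, luminal epithelial cells make KLK2, KLK3 and KLK4 under the control of androgen, which acts through AREs, short palindromic elements in promoters or enhancers. KLK3 encodes prostate-specific antigen (PSA), a chymotrypsin-like enzyme that liquefies semen by cutting semenogelins and is the serum marker of prostate cancer. KLK2 encodes a trypsin-like relative that can activate the PSA precursor. KLK4, prostase, is a trypsin-like protease that also degrades matrix proteins in forming tooth enamel.

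The annotation of GRCh37 places KLK3 (ENSG00000142515) on chromosome 19 from 51358171 to 51364020 and KLK2 (ENSG00000167751) from 51364824 to 51383823, both on the plus strand and separated by 803 bases. KLK4 (ENSG00000167749) runs on the minus strand from 51409607 to 51414651, 25783 bases beyond the end of KLK2. All of their exons together cover 4639 bases in KLK3, 6351 in KLK2 and 2004 in KLK4. KLK3 and KLK2 are close relatives, but their annotated transcripts shared 60 stretches of 31 bases, 1.22% of those of KLK3 and 0.902% of those of KLK2, and neither shared any with KLK4. Reads from such stretches may have been divided between KLK3 and KLK2 in the authors' quantification.

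The MACCs were made to bind AREs, so the sequence just before each kallikrein's start site was searched for the palindrome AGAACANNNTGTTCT (N is any base), which has 12 fixed letters and reads the same on both strands. The sequences below are the 250 bases before the RefSeq start site (GRCh38.p14, 5′ to 3′ on the gene's strand), with the best match in capitals. They are shown because the same place holds the best match in KLK3 and in KLK2. The KLK3 stretch is chr19:50854665-50854914 and the KLK2 stretch is chr19:50873189-50873438, both on the plus strand.
KLK3: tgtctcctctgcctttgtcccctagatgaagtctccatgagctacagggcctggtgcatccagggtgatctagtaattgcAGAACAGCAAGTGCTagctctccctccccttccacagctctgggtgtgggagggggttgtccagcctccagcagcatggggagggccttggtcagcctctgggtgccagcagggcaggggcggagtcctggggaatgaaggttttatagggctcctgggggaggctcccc
KLK2: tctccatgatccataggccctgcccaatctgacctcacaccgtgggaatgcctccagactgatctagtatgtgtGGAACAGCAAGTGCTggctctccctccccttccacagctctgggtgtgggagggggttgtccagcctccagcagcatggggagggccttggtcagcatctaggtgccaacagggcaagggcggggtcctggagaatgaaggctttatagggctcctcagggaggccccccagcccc
The KLK3 match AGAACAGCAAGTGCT began at base -170 from the start site and held 10 of the 12 fixed letters, a score that 1.41% of 35116 RefSeq promoter entries reached, each searched from 250 bases before to 50 after its start. The KLK2 match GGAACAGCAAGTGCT began at base -176 and held 9 of the 12, a score that 10.8% of entries reached. KLK3 also held AGAACA, a complete arm of the palindrome (AGAACA or TGTTCT on the other strand, counted also where it overlaps the palindrome), as did 14.8% of entries, and KLK2 did not. KLK4 has 2 RefSeq start sites, with best matches of 7 and 6 of the 12 letters, which 89.2% and 99.7% of entries reached. Over these 250 bases KLK2 and KLK3 were identical at 211 positions of an alignment (84.4%), with an unbroken shared run of 80 bases, whereas KLK4 was identical to them at 56.4% to 58.4% of positions. A match of letters is a description, and enhancers farther away were not searched.

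The libraries held 454982 to 1164808 counts, with a median of 669922, and the 3 kallikreins were among the 3985 genes that passed the filter on low counts. Their own counts were small: KLK3 had 3 to 59 counts per library (median 25), KLK2 had 2 to 18 (median 9) and KLK4 had 3 to 22 (median 9). A single count of 9 has an exact Poisson 95% interval of 4.12 to 17.1, and intervals of this kind cover counting error only. Levels are given below as normalized counts, meaning CPM after TMM scaling. Per kilobase of exon, the mean over the 32 libraries was 7.67 normalized counts for KLK3, 6.83 for KLK4 and 2.02 for KLK2. The libraries were prepared with a stranded kit, and the strand setting of the counting is not given in the sources used here. The table averaged 65.6 counts for GAPDH and 18.9 for FTH1, both abundant transcripts in most cells, but 25015 for BEST1, which lies opposite FTH1. Among mitochondrial genes, MT-ND6, encoded on the minus strand, averaged 4468 counts and the 12 plus-strand genes averaged 13.4 to 1137 each. Of the counts on annotated genes, 80.9% fell on the 23.0% of annotated genes with exons of another gene on the opposite strand. KLK3 ranked 2189 of 3839 tested genes in normalized counts per kilobase of exon. If the counting used the strand opposite to the kit's, the values of KLK2, KLK3 and KLK4 would count reads from the strand opposite their mRNA. They would then not measure the mRNA itself. Which strand was counted was not tested, so the levels and changes below may not be those of mRNA. No annotated exon lies opposite these 3 genes, so no other feature of the table holds the reads of their other strand. Levels and changes below are of the counts as deposited.

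The rest of the kallikrein cluster was nearly silent in the table. Of the other 13 kallikrein symbols, 10 had 0 counts in every library and none passed the filter. The pseudogene KLKP1 had 24 counts summed over all libraries, KLK15 had 3 and KLK1 had 1. Within 100 kb of the 3 genes lay 26 annotated features, of which 14 had 0 counts throughout and 4 averaged at least 3 counts per library: KLK3 (23.9), KLK4 (9.31), C19orf48 (9.16) and KLK2 (8.72). The luminal markers were present in every group, with 7 of 7 above 0 and summed counts of 402 to 1492 outside the activating line under tamoxifen. KLK3 and KLK2 are themselves 2 of these 7 markers. Most of the sum was KRT8, with 311 to 1359 counts per library in those groups. The basal marker TP63 and the leukocyte markers were at 0 in every library, stromal markers summed to at most 7 and neuroendocrine markers to at most 14.

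**Figure D1:**
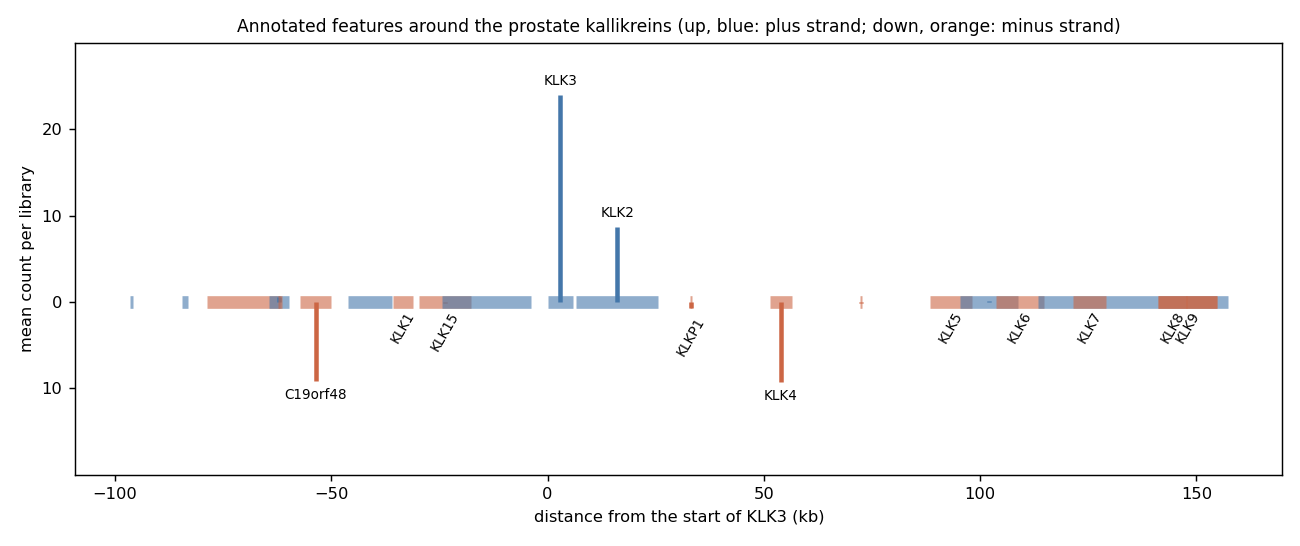
Mean count per library of each annotated feature within 100 kb of KLK3, KLK2 and KLK4, against distance in kb from the start of KLK3; plus strand features point up and minus strand features down, and pale bars mark gene bodies. KLK3, KLK2, KLK4 and C19orf48 are the features with a mean of at least 3 counts.

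In the parental line, tamoxifen left all 3 genes within their spread. KLK3 had 34.1, 34.4, 23.9 and 41.4 normalized counts in the vehicle libraries and 34.8, 47.9, 32.8 and 30.9 under tamoxifen. KLK2 had 8.03, 8.18, 15.96 and 11.4 under vehicle and 13.1, 9.22, 6.56 and 18.5 under tamoxifen. KLK4 had 8.03, 16.4, 15.96 and 18.5 under vehicle and 13.1, 12.9, 18.0 and 13.9 under tamoxifen. The treatments overlapped for each gene, with no group of libraries standing above the other. The log2 fold changes were 0.06 for KLK3 (95% interval -0.45 to 0.57), 0.11 for KLK2 (-0.78 to 0.99) and -0.09 for KLK4 (-0.80 to 0.62), and edgeR gave them adjusted p-values of 0.980, 0.982 and 0.979. None of the 3 genes was called, beside 0.0% of the 3985 tested genes: edgeR's test called 0 genes, 306 had an unadjusted p under 0.05, DESeq2 called 0 and the fit without a low count filter 24.

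In the neutral line, which carries the DNA binding domain without an effector, none of the 3 genes was called, beside 4.72% of tested genes. KLK3 had 30.9, 58.5, 36.2 and 69.3 normalized counts under vehicle and 35.1, 34.1, 40.5 and 48.8 under tamoxifen. Vehicle replicates 2 and 4 were the highest KLK3 values of all 32 libraries, replicate 3 lay inside the tamoxifen range and replicate 1 below it. By edgeR, KLK3 differed by -0.33 on the log2 scale (SE 0.25, adjusted p = 0.563). KLK4 had 14.8, 6.50, 13.4 and 10.6 under vehicle and 20.2, 11.9, 33.0 and 18.9 under tamoxifen. Tamoxifen replicate 3 was its highest value of all libraries, and tamoxifen replicate 2 lay inside the vehicle range. The log2 fold change of KLK4 was 0.88 (SE 0.34), with an unadjusted p of 0.0182 that became 0.169 after adjustment over all tested genes in edgeR. KLK2 had 12.3, 20.8, 13.4 and 15.3 under vehicle and 10.6, 15.4, 16.5 and 23.6 under tamoxifen, with a log2 fold change of 0.04 (adjusted p = 0.966 from edgeR).

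Under the repressive MACC, KLK3 fell and KLK2 and KLK4 did not pass the test. KLK3 had 35, 31, 11 and 25 counts in the vehicle libraries and 10, 5, 6 and 3 under tamoxifen. As normalized counts these were 48.7, 37.3, 21.0 and 34.8 against 12.9, 8.70, 9.16 and 4.52. The lowest vehicle library was above the highest tamoxifen library. The mean went from 35.5 ± 11.4 to 8.81 ± 3.42 normalized counts (SD, n = 4 each), a ratio of 0.249. The log2 fold change was -2.03 (SE 0.33, 95% interval -2.70 to -1.36, adjusted p = 3.16e-05 from edgeR). Among the 3985 tested genes 17.8% were called in this line and 9.99% were called as lower, and for 9.71% all tamoxifen libraries lay below all vehicle libraries.

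KLK2 in the repressive line had 8.35, 12.04, 9.57 and 15.3 normalized counts under vehicle and 6.43, 3.48, 9.16 and 15.1 under tamoxifen. Tamoxifen replicates 1 and 2 were below the vehicle range and the other two inside it. This gave a log2 fold change of -0.45 (95% interval -1.35 to 0.45, edgeR adjusted p = 0.531). KLK4 had 13.9, 16.9, 9.57 and 13.9 under vehicle and 9.01, 10.4, 7.63 and 7.53 under tamoxifen. Its tamoxifen libraries lay at the bottom, and only replicate 2 reached into the vehicle range. By edgeR, KLK4 differed by -0.72 on the log2 scale (95% interval -1.50 to 0.07, adjusted p = 0.213), an interval that reaches from a marked fall to no change.

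Under the activating MACC, KLK3 was higher under tamoxifen by a smaller amount, and this call depended on how libraries were scaled. KLK3 had 32.7, 37.3, 33.2 and 30.7 normalized counts under vehicle and 45.9, 57.0, 39.3 and 52.2 under tamoxifen. All tamoxifen libraries were above all vehicle libraries, as for 16.5% of tested genes in this line. The mean went from 33.5 ± 2.77 to 48.6 ± 7.67 normalized counts (SD, n = 4 each). The log2 fold change was 0.66 (SE 0.21, 95% interval 0.23 to 1.09, adjusted p = 0.0130 from edgeR), beside 44.8% of tested genes called in this line and 22.0% called as higher. The counts themselves were 31, 28, 21 and 19 under vehicle and 25, 31, 19 and 29 under tamoxifen, sums of 99 and 104. The TMM factors were 0.934 to 1.13 in the vehicle libraries and 0.795 to 0.900 in the tamoxifen libraries. With library totals alone, edgeR gave 0.21 (adjusted p = 0.432), and the median of all tested genes moved with it from -0.09 to -0.54. Relative to that median KLK3 stood at 0.75 under both scalings. The call was also lost without a low count filter (0.68, adjusted p = 0.0531 from edgeR) and in DESeq2's Wald test (0.68, adjusted p = 0.0528).

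KLK4 moved the other way in the activating line without passing the test. It had 19.01, 18.7, 14.2 and 16.2 normalized counts under vehicle and 7.35, 5.51, 16.6 and 5.40 under tamoxifen. Tamoxifen replicates 1, 2 and 4 were below every vehicle library, and replicate 3 lay among them. The log2 fold change was -0.88 (SE 0.40, 95% interval -1.71 to -0.05, adjusted p = 0.0770 from edgeR). Without tamoxifen replicate 3 it was -1.37 (adjusted p = 0.0136 from edgeR), and with library totals in place of TMM -1.33 (adjusted p = 0.00855 from edgeR). KLK2 had 19.01, 18.7, 17.4 and 9.69 under vehicle and 20.2, 9.19, 8.28 and 10.8 under tamoxifen. Each group held a library from the range of the other, and edgeR gave -0.31 on the log2 scale (95% interval -1.07 to 0.46, adjusted p = 0.527).

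**Figure D2:**
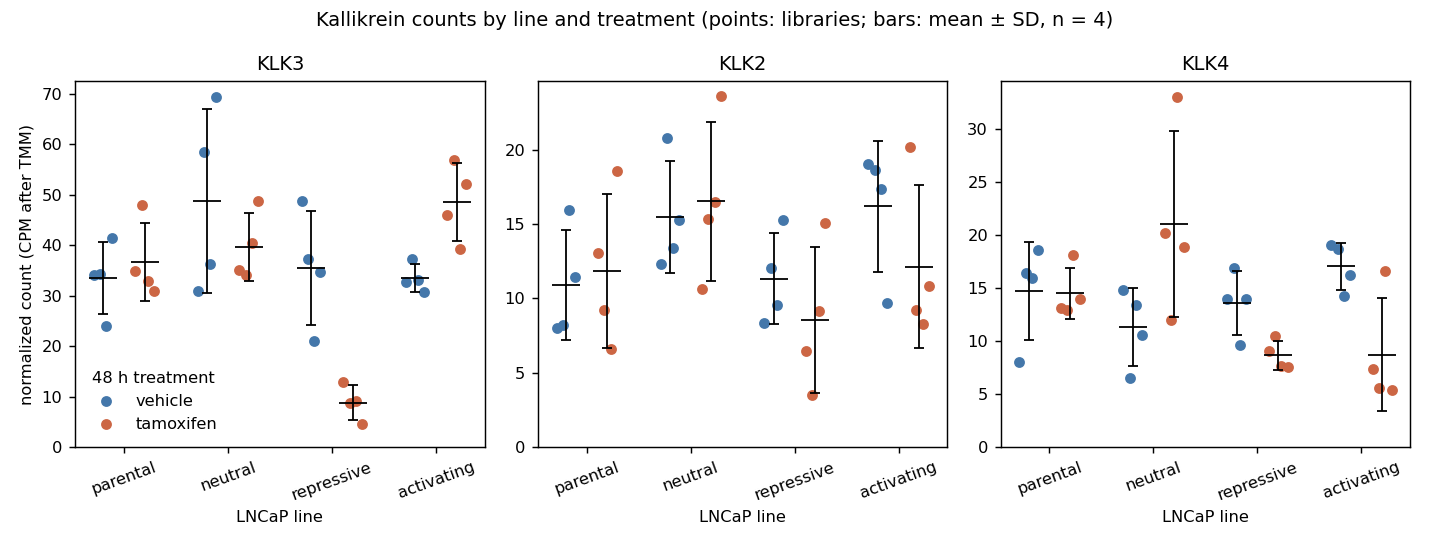
Normalized counts (CPM after TMM) of KLK3, KLK2 and KLK4 in each of 32 libraries by line, with vehicle in blue and tamoxifen in orange; bars are the mean ± SD of 4 libraries. The KLK3 tamoxifen libraries of the repressive line, at 4.52 to 12.9, lie below every other KLK3 value.

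Across the 8 groups the mean KLK3 level ran from neutral vehicle (48.7 ± 18.2), activating tamoxifen (48.6 ± 7.67), neutral tamoxifen (39.6 ± 6.72) and parental tamoxifen (36.6 ± 7.71) to repressive vehicle (35.5 ± 11.4), activating vehicle (33.5 ± 2.77) and parental vehicle (33.4 ± 7.18 normalized counts, SD, n = 4 in each group). These neighbours overlapped in their ranges, and repressive tamoxifen (8.81 ± 3.42) came last with no overlap. KLK2 ran from 16.5 ± 5.36 in neutral tamoxifen to 8.53 ± 4.93 in repressive tamoxifen, with every group overlapping the next. KLK4 ran from 21.0 ± 8.78 in neutral tamoxifen and 17.0 ± 2.25 in activating vehicle to 8.70 ± 5.31 in activating tamoxifen and 8.65 ± 1.37 in repressive tamoxifen, again with every group overlapping the next.

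Before induction, the MACC lines did not differ from the parental line in any of the 3 genes by edgeR's test. Calls were made for 9.74% of tested genes in the neutral, 10.8% in the repressive and 8.08% in the activating line against the parental line. The largest differences were 0.61 for KLK2 in the activating line (95% interval -0.14 to 1.36, adjusted p = 0.341 from edgeR) and 0.49 for KLK3 in the neutral line (95% interval -0.04 to 1.03, adjusted p = 0.272 from edgeR). In the repressive line KLK3 differed by 0.10 (95% interval -0.42 to 0.61), KLK2 by 0.08 and KLK4 by -0.11 on the log2 scale.

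Whether the lines responded differently was tested directly, as the difference between their log2 fold changes. The KLK3 response was lower in the repressive than in the neutral line by -1.71 (SE 0.43, adjusted p = 0.0188 from edgeR), where 3.39% of tested genes differed. It was higher in the activating than in the neutral line by 0.96 (SE 0.33, adjusted p = 0.0248 from edgeR), where 33.4% of tested genes differed, and higher in the activating than in the repressive line by 2.69 (SE 0.38, adjusted p = 3.39e-07 from edgeR), where 35.9% differed. The first of these calls rested on 2 libraries: without repressive vehicle replicate 1 the difference was -1.55 (adjusted p = 0.0501 from edgeR) and without repressive tamoxifen replicate 4 it was -1.49 (adjusted p = 0.0601). The difference of 0.96 was not called without neutral vehicle replicate 4 (0.72, adjusted p = 0.0882 from edgeR), without activating tamoxifen replicate 2 (0.86, adjusted p = 0.0589), with library totals (0.69, adjusted p = 0.138) or without a low count filter (0.94, adjusted p = 0.0577).

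The KLK4 response was lower in the activating than in the neutral line by -1.79 (SE 0.53, 95% interval -2.87 to -0.71, adjusted p = 0.00917 from edgeR), the opposite sign to KLK3 in the same pair of lines. Neither line alone passed the test for KLK4, whose estimates were 0.88 and -0.88. The KLK4 response in the repressive line differed from the neutral one by -1.60 (SE 0.50, adjusted p = 0.0755 from edgeR), which was called without neutral tamoxifen replicate 2 (-1.76, adjusted p = 0.0429 from edgeR). Between the activating and repressive lines KLK4 differed by -0.16 (95% interval -1.29 to 0.96). KLK2 was not called in any of these comparisons, with differences of -0.50, -0.38 and 0.14 and 95% intervals that reach beyond 0.5 on both sides of 0.

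**Figure D3:**
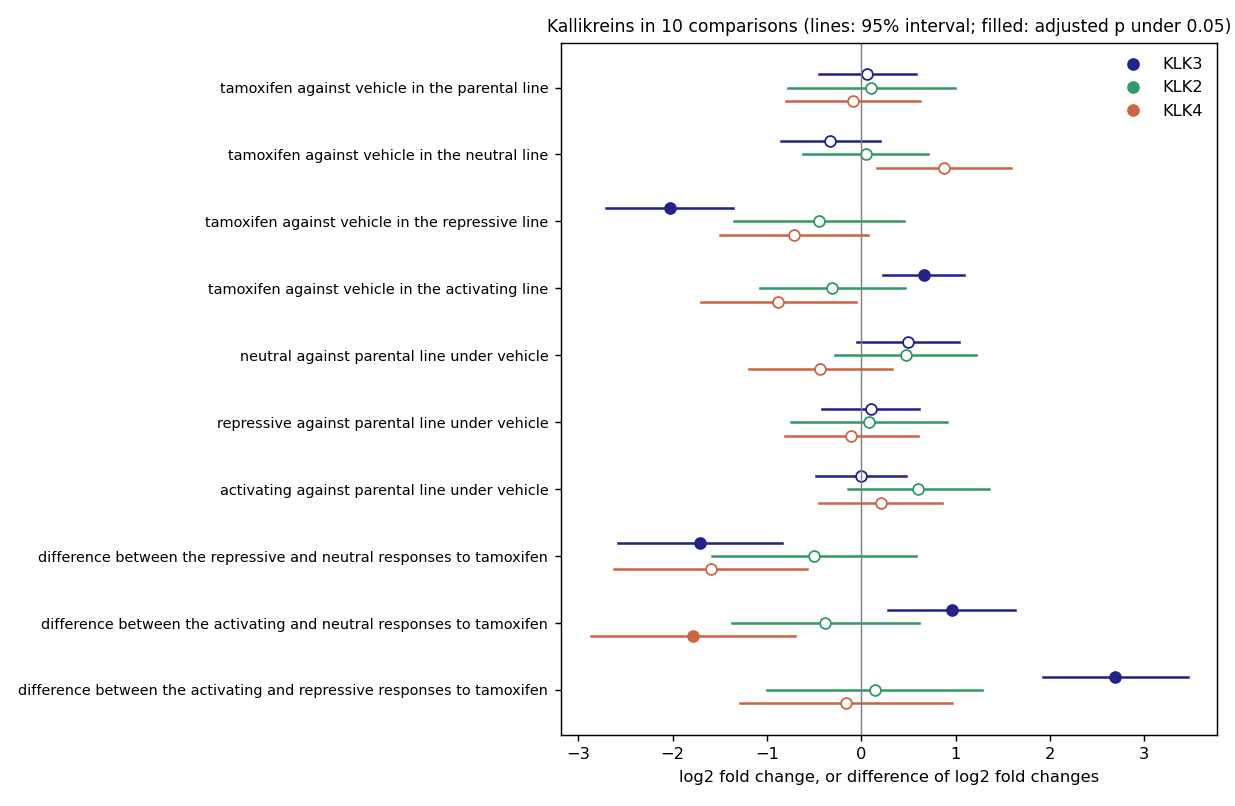
Log2 fold changes of KLK3, KLK2 and KLK4, or differences between 2 such changes, in 10 comparisons by edgeR; horizontal lines are 95% intervals and filled points have an adjusted p under 0.05. The filled points are KLK3 in the repressive (-2.03) and activating (0.66) lines, KLK3 in all 3 differences between responses and KLK4 where the activating response was set against the neutral one (-1.79).

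The change of KLK3 against its neighbours was also read as a share of counts summed over the 4 libraries of a group. No scaling factor enters this measure. Of the counts on the 3 genes in the repressive line, KLK3 held 59.0% under vehicle (102 of 173, Wilson 95% interval 51.5 to 66.0) and 34.3% under tamoxifen (24 of 70, 24.2 to 46.0). In the activating line its share was 49.7% under vehicle (99 of 199, 42.9 to 56.6) and 70.3% under tamoxifen (104 of 148, 62.5 to 77.0). In the parental line the shares were 56.8% and 57.7%, and in the neutral line 64.7% and 51.4%. The neutral shares had Wilson 95% intervals of 58.5 to 70.5 under vehicle and 44.8 to 58.0 under tamoxifen. The KLK3 share was thus lower under tamoxifen in both the repressive and the neutral line, and higher in the activating line. These pooled intervals hold no spread between libraries. In the activating line the summed counts went from 99 to 104 for KLK3, from 49 to 26 for KLK2 and from 51 to 18 for KLK4. The higher share there came with fewer counts on the other genes and does not by itself show a rise of KLK3.

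The log2 ratio of KLK3 to KLK4, with 0.5 added to each count, compared the libraries themselves. It was 1.31 ± 0.32 under vehicle and -0.04 ± 0.51 under tamoxifen in the repressive line (SD, n = 4 each), and 0.95 ± 0.17 and 2.49 ± 0.91 in the activating line. The treatments did not overlap in either of these lines, and the exact two-sided permutation test gave p = 0.0286 for both, the smallest value this design allows, and an adjusted p of 0.171 over 12 ratios. In the neutral line the ratio of KLK3 to KLK4 was 2.03 ± 0.97 under vehicle and 0.96 ± 0.54 under tamoxifen, a difference of -1.06 with overlapping treatments (exact permutation p = 0.143, adjusted p = 0.343), and in the parental line the difference was 0.11. For KLK3 to KLK2 the difference was -1.44 in the repressive and 0.93 in the activating line (exact permutation p = 0.0571 for both, adjusted p = 0.171). In the neutral line it was -0.30 (exact permutation p = 0.286, adjusted p = 0.471). The ratio of KLK2 to KLK4 differed by -0.76 in the neutral line, 0.09 in the repressive line and 0.60 in the activating line (exact permutation p = 0.229, 0.771 and 0.314, adjusted p = 0.457, 0.926 and 0.471). These ratios were added after the data had been seen.

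The exact permutation test on single normalized counts placed KLK3 in the repressive and activating lines at its smallest value too (p = 0.0286 each), and neither passed after adjustment over 12 tests (adjusted p = 0.171). The next smallest exact permutation p-values were 0.0571 for KLK4 in the repressive line and 0.0857 for KLK4 in the neutral and activating lines (adjusted p = 0.206).

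**Figure D4:**
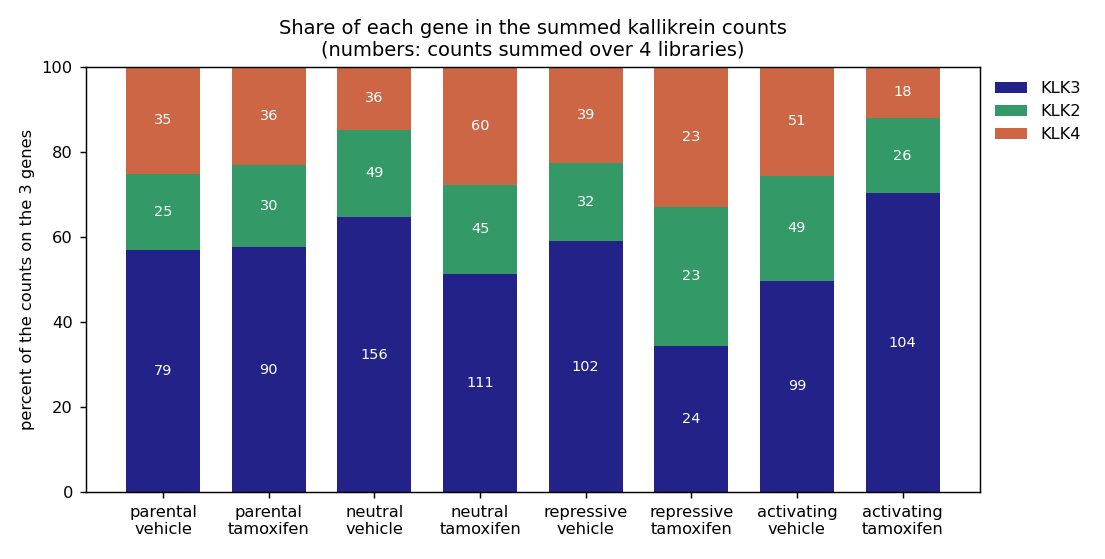
Share of KLK3, KLK2 and KLK4 in the counts on the 3 genes, in percent, for each line and treatment; numbers in the bars are counts summed over 4 libraries. KLK3 held 34.3% in the repressive line under tamoxifen and 70.3% in the activating line under tamoxifen, against 49.7% to 64.7% in the other groups.

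Genes known to be regulated by androgen gave the setting for these changes. Of 24 such genes outside the kallikreins, 8 passed the filter, 4 of them with exons of another gene on the opposite strand. In the repressive line 0 were called higher and 5 lower (FKBP5, PMEPA1, SLC45A3, STK39 and ZBTB16), with a median log2 fold change of -1.28 over the 8, beside 0.00 over all tested genes, of which 9.99% were called lower and 17.8% either way. In the activating line 5 were called higher (FKBP5, PMEPA1, SORD, STK39 and ZBTB16) and 1 lower (SLC45A3), with a median of 1.13 beside -0.09 over all tested genes, of which 22.0% were called higher and 44.8% either way. In the neutral line 0 were higher and 1 lower, beside 4.72% of tested genes called, and in the parental line 0 were called, beside 0.0%. Library totals in place of TMM gave 4 higher and 1 lower in the activating line and a median of 0.68 beside -0.54. DESeq2's test and the fit without a low count filter each gave 2 lower in the repressive line (FKBP5 and PMEPA1), and fits that left out a library 2 to 5.

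FKBP5, a chaperone partner of steroid receptors and a standard androgen-induced gene, went from 3 to 8 counts per vehicle library to 0 to 1 per tamoxifen library with the repressive MACC (log2 fold change -2.78, SE 0.68, adjusted p = 0.00394 from edgeR). With the activating MACC, FKBP5 had 2 to 11 counts per vehicle library and 59 to 79 per tamoxifen library (3.69, SE 0.25, edgeR adjusted p = 1.44e-11). FKBP5 and KLK3 thus moved in the same directions, and the FKBP5 estimate was the larger in both lines. TMPRSS2, a serine protease gene regulated by androgen, averaged 4.56 counts, overlaps exons of MX1 on the opposite strand and did not pass the filter.

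Of 11 genes for transcription factors and coactivators that act with androgen signalling in the prostate, 5 passed the filter. The pioneer factor FOXA1, which overlaps exons of TTC6 on the opposite strand, was at -0.03 in the repressive line and fell in the activating line (-0.75, edgeR adjusted p = 0.0435), a call kept in 2 of 8 fits that left out a library. HOXB13, a prostate homeobox factor, rose with the repressive MACC (0.63, edgeR adjusted p = 0.0158) and fell with the activating MACC (-0.72, edgeR adjusted p = 0.00964). DESeq2's test made none of these calls for FOXA1 and HOXB13. That for FOXA1 was also lost with DESeq2's size factors (edgeR adjusted p = 0.0516), the replicate block (0.0501) and no low count filter (0.224), and that for HOXB13 in the repressive line with library totals (0.0687), no low count filter (0.0516) and without replicate 3 of either treatment (0.0561 and 0.0568). GRHL2, the remaining call in the list, rose in the activating line.

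Markers of other cell types gave 1 further change beside the KLK3 rise. KRT5, a keratin of basal cells, had 38 to 54 counts in the activating tamoxifen libraries and 0 in the other 28 libraries, while TP63 stayed at 0 and KRT14 and KRT15 had at most 3 counts. The summed basal markers were 38 to 54 there and 0 to 3 in every other group, and the summed luminal markers were 4163 to 5947 there and 613 to 1321 in the activating vehicle libraries. KRT8, which shares opposite-strand sequence with KRT18, had up to 5848 of these counts. Their part in the kallikrein values was not tested. In bulk samples such as these, fewer cells that express a gene and less RNA per cell cannot be told apart.

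C19orf48, which lies on the centromeric side of KLK3 beyond KLK15 and KLK1, fell with the activating MACC, from 5 to 18 counts to 0 to 5 (log2 fold change -1.35, SE 0.53, edgeR adjusted p = 0.0437). DESeq2's test (adjusted p = 0.122) and the fit without a low count filter (edgeR adjusted p = 0.0792) did not call it, and 3 of 8 fits that left out a library did. With the repressive MACC it was at -0.20 (edgeR adjusted p = 0.749). Of 12 genes whose proteins act with kallikreins in seminal plasma, such as inhibitors and substrates, 9 had a count in some library and none passed the filter. Without the filter, 7 of them entered the fit in the activating line, and AZGP1 and SERPINA5 were called higher. Over all genes that fit called 1067 higher and 837 lower. The number of genes in it is not printed here, so 2 of 7 is not set against a share of all genes. AZGP1, a zinc-binding glycoprotein of seminal plasma, had 1 to 3 counts per vehicle library and 9 to 23 per tamoxifen library. SERPINA5, a protease inhibitor, had 0 and 2 to 3. A2M, a broad protease inhibitor, was the only one of the 12 genes to average at least 3 counts (6.69), and it overlaps an antisense RNA.

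The 5 genes whose log2 levels followed KLK3 most closely over the 32 libraries were LTBR (Pearson r = 0.824), UFSP2 (0.805), RP5-1120P11.1 (0.763), FAM13A (0.750) and RP11-443A13.5 (0.748), each of which overlaps an exon on the opposite strand. For KLK4 they were NFRKB (0.659), PCDHGA5 (0.637), GUK1 (0.610), KCNN2 (0.610) and CTU2 (0.590). For KLK2 they were GALNT10 (0.536), FUT11 (0.526), PDPK2 (0.521), MFSD7 (0.519) and LRP2BP (0.504). By Spearman's rho 3 of these 5 genes remained for KLK3, 2 for KLK2 and 3 for KLK4, and LIMCH1 came first for KLK3 (0.819) while FAM13A (0.444) and RP11-443A13.5 (0.429) dropped out. Between the kallikreins, Pearson's r was 0.346 for KLK3 with KLK2, 0.171 for KLK3 with KLK4 and 0.166 for KLK2 with KLK4. The 5 genes listed for each were picked as the highest of 3985 tested genes, so any gene outside a list is lower by construction. KLK2 and KLK4 had a median of 9 counts each, and how far counting error lowers these coefficients was not tested. The libraries share lines, treatments and depth, so all of the coefficients here describe the table and carry no p.

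**Figure D5:**
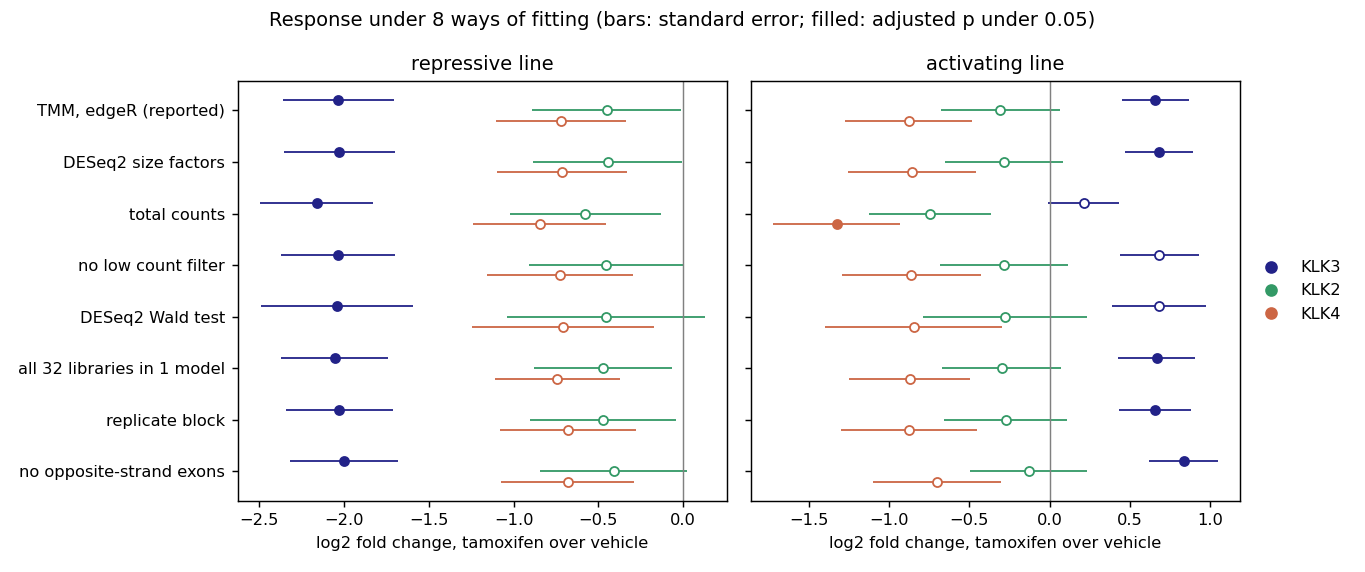
Log2 fold change of tamoxifen over vehicle for KLK3, KLK2 and KLK4 in the repressive and activating lines under 8 ways of fitting; bars are standard errors and filled points have an adjusted p under 0.05. KLK3 in the repressive line was called in all 8, while KLK3 in the activating line was called in 5 and KLK4 there only with total counts.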

How the data were processed

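RNA of parental LNCaP and MACC cells was sequenced after 48 h in 32 libraries made with a kit that keeps strand. The authors used an nf-core workflow for quantification, and the submitters' processing notes name Salmon 1.9.0, DESeq2 1.28.0 and GRCh37. The deposited values are estimated counts per gene, not normalized. The annotation release and the strand setting are not given in the sources used here. Every column was matched to a sample by its label, with 0 columns left over.

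Estimated counts were rounded to whole numbers. Genes were kept by filterByExpr over the 8 groups, scaled by TMM and tested with edgeR's quasi-likelihood test (edgeR 4.0.16, R 4.3.3) on the libraries of each comparison, with Benjamini-Hochberg adjustment over all tested genes and a threshold of 0.05. Differences between responses were interaction terms. Exact two-sided permutation tests used log2(CPM + 1). Alternatives were DESeq2 (1.42.0), other scalings, no filter (every gene with at least 1 count), 1 model over all libraries, a replicate block, another pseudocount and leaving out each library. Ratios within libraries and a fit on the 902 tested genes with no exon on the opposite strand were chosen after seeing the data. The edgeR step was tested on simulated counts. Replicate pairs differed by more than sampling noise. Positions came from GENCODE release 44 lifted to GRCh37, which held 96.1% of the table's genes, and promoters from RefSeq.

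The members and lists were chosen with earlier results of these data known. Genes named were the 3 kallikreins, neighbours within 100 kb with a mean of at least 3 counts, called genes of the androgen lists with FKBP5 and TMPRSS2, and the 5 nearest by Pearson's r. KRT5, KRT8, A2M, AZGP1, SERPINA5 and LIMCH1 were named after their values were seen. Some genes of these lists are not reported here and were left out of their counts.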

Additional observations from a re-analysis of the deposited data

Results flagged for a closer look

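Responses to tamoxifen that differed between lines were taken from the interaction terms of edgeR. KLK3 responded more negatively in the repressive than in the neutral line (-1.71 on the log2 scale) and more positively in the activating line than in the neutral line (0.96) or the repressive line (2.69). KLK4 responded more negatively in the activating than in the neutral line (-1.79). The KLK3 differences from the neutral line contain its vehicle replicates 2 and 4, which had the highest KLK3 values of the series. No library stood apart from its group by Dixon's test in any of the 24 groups of 4 values. The largest ratios were just under the critical 0.829. They were 0.825 for KLK4 in activating tamoxifen replicate 3 and 0.824 for the lowest KLK2 value under activating vehicle.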

How the results depend on the processing

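The fall of KLK3 in the repressive line was called under every alternative, with a range of -2.30 to -1.82 when each library was left out, as was its difference between the activating and repressive responses (2.47 to 2.99). The rise of KLK3 in the activating line stayed called without each library (0.58 to 0.73) but not with total counts (0.21), without a filter (0.68) or in DESeq2 (0.68). Its activating minus neutral difference was lost with total counts (0.69) and without a filter (0.94) and ran from 0.72 to 1.15 without single libraries. That between the repressive and neutral responses ran from -1.998 to -1.49. For KLK4, the activating response was called with total counts (-1.33) and ran from -1.37 to -0.69, and the repressive minus neutral difference ran from -1.76 to -1.34. Values near 0 changed sign: KLK2 in the neutral line with total counts (-0.10), KLK2 in the repressive against the parental line on genes with no opposite exon (-0.0093), KLK3 in the activating against the parental line with the replicate block (0.0054), KLK2 activating minus repressive with total counts (-0.17), and the KLK4 mean difference in the parental line with DESeq2's size factors (-0.0295). Leaving out single libraries also turned the sign of uncalled values. In the parental line KLK3 ran from -0.10 to 0.16, KLK2 from -0.19 to 0.34 and KLK4 from -0.26 to 0.0179, and in the neutral line KLK2 from -0.17 to 0.25. Under vehicle, the repressive against the parental line gave -0.0638 to 0.23 for KLK3, -0.0905 to 0.31 for KLK2 and -0.26 to 0.0074 for KLK4, and the activating line -0.11 to 0.0675 for KLK3. The activating minus repressive difference was -0.20 to 0.54 for KLK2 and -0.63 to 0.058 for KLK4. Mean differences for the permutation test were -0.0151 to 0.24 for KLK3, -0.16 to 0.30 for KLK2 and -0.22 to 0.15 for KLK4 in the parental line and -0.11 to 0.25 for KLK2 in the neutral line. Log2 ratios in the parental line were -0.27 to 0.37 for KLK3 over KLK2, -0.0908 to 0.38 for KLK3 over KLK4 and -0.20 to 0.38 for KLK2 over KLK4, and in the repressive line -0.27 to 0.50 for KLK2 over KLK4. The cause of these changes was not tested. DESeq2 gave no adjusted p in 9 cases, which were left out.

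Replicate numbers were not taken as pairs: same-numbered tamoxifen and vehicle libraries correlated at -0.026 to 0.247, and in no line were all 4 pairs over 0.1. Still, 11 of 16 libraries correlated best with their own number, among them all 4 of the repressive line, a hint from the data and not from the design. With the replicate block KLK3 was at -2.03 in the repressive and 0.66 in the activating line, and no call on KLK2, KLK3 or KLK4 changed. Over all genes the block gave 32 calls in place of 0 in the parental line, 686 in place of 432, 208 in place of 388 and 90 in place of 322 for the repressive, neutral and activating lines against the parental line, and 205 in place of 135 for the repressive minus neutral difference, where total counts gave 58. DESeq2 called 451 genes in the repressive line in place of 709. With total counts, calls in the activating line split into 442 higher and 1684 lower, against 876 and 910 with TMM, in the repressive line 147 and 576 against 311 and 398, and in the neutral line 27 and 137 against 104 and 84. The activating against the parental line under vehicle split 133 and 200 against 169 and 153, the activating minus neutral difference 370 and 945 against 639 and 690, and the activating minus repressive difference 454 and 1100 against 722 and 708.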
